A study of Rattus norvegicus with 6 samples.

Results

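The genes examined here carry iron into cells, hold it inside them and pass it on. Of 10 gene names (Tf, Tfrc, Steap3, Fth1, Ftl1, Slc40a1, Cp, Hmox1, Ireb2 and Aco1), taken as the rows whose name equals one of them, 9 were found among the 30957 genes of the deposited table, and all 9 had enough counts to be tested. No row is named Slc40a1, the iron exporter ferroportin, so that gene was not analysed here.

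Iron travels in blood and in the fluid around cells bound to transferrin, and cells take it in through the transferrin receptor. Inside the cell it is used by enzymes and mitochondria or stored in ferritin, a hollow shell of heavy and light chains, while heme oxygenase releases iron from heme and ceruloplasmin oxidizes the iron that leaves the cell so that transferrin can bind it again. In the central nervous system transferrin is made mainly by oligodendrocytes and choroid plexus, and a membrane-anchored ceruloplasmin is made by astrocytes.

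The RNA came from the lumbar enlargement of the spinal cord, its ipsilateral side, of female Wistar rats, with the meninges removed, on day 14. In the bone cancer pain (BCP) group, living Walker 256 cells, a rat mammary carcinoma line, had been placed in the marrow cavity of the left tibia, and the sham group had received heat-killed cells of the same line in the same place. Each group had 3 libraries of ribosome-depleted total RNA. The labels do not say whether a library is 1 animal or a pool, and p-values measure only the spread between these libraries.

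The libraries held 11779485 to 15004290 counts on genes, and 14908 genes were tested with edgeR's quasi-likelihood test. Levels are given as CPM, counts scaled to the normalised library total, with mean ± SD over 3 libraries, and a gene is called where its p-value, adjusted over all tested genes by Benjamini-Hochberg, is under 0.05. Markers of neurons, oligodendrocytes and astrocytes were abundant in every library, with summed levels of at least 2385, 27917 and 4035 CPM. The tissue is a mixture of cells, and fewer cells of a type and less RNA per cell cannot be told apart in it.

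5 of the 9 genes were higher in BCP rats and none was lower: Cp, Hmox1, Ftl1, Tfrc and Ireb2. Among all tested genes 15.8% were higher and 12.1% lower by the same test. The count of 0 lower genes is that of edgeR and also of DESeq2, and 1 gene, Tf, was lower at an unadjusted p-value under 0.05. Cp and Hmox1 were the pair that also passed a log2 fold change of 1, that is, more than a doubling, which 6.35% of all tested genes did upward and 0.107% downward. The median log2 fold change of the 9 genes was 0.15, beside -0.01 for all tested genes. In all 5 called genes the 3 BCP libraries lay above the 3 sham libraries, as they did in 21.7% of all tested genes, with the reverse order in 19.8%, and in the other 4 genes the groups overlapped. The plot of single libraries shows how different the sizes of the called changes were.

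**Figure D1:**
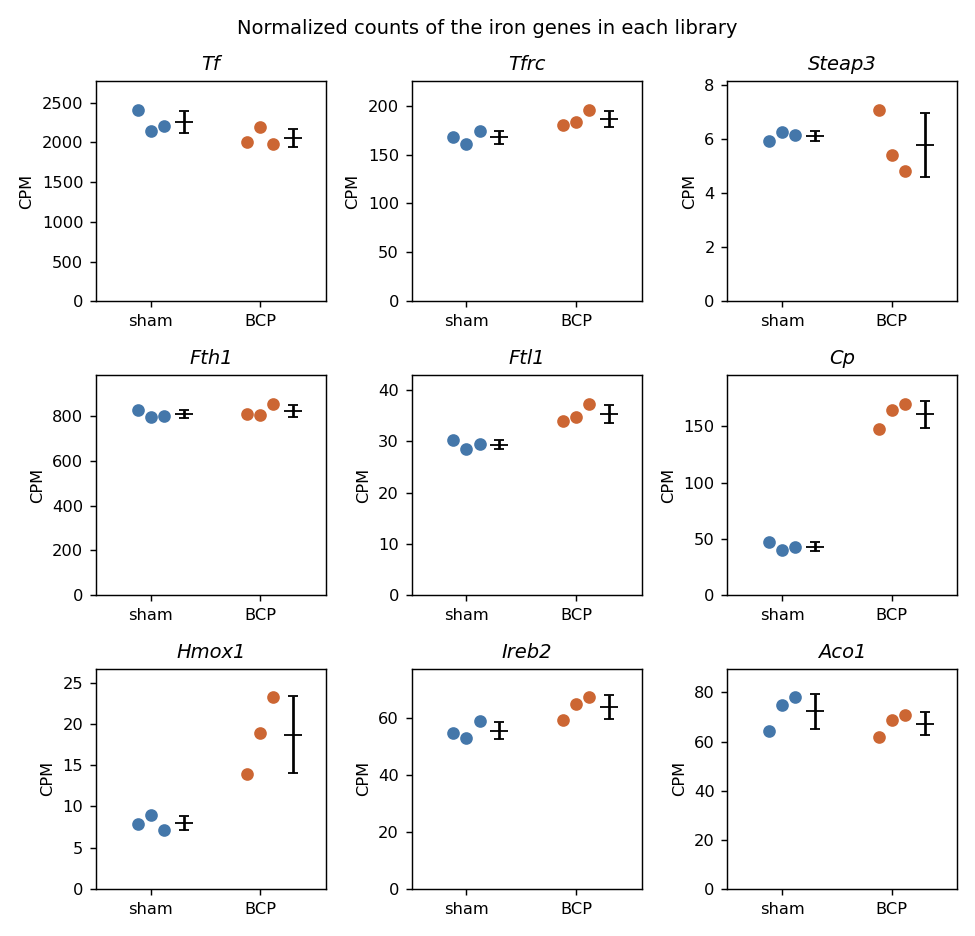
Normalised counts (CPM, vertical axes from 0) of the 9 genes in each of the 3 sham (blue) and 3 BCP (orange) libraries, with mean ± SD in black. Cp stood at 40.0 to 47.3 CPM in sham and at 147 to 170 CPM in BCP rats, while Fth1 and Tf overlapped between the groups.

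Transferrin, Tf (ENSRNOG00000030625, chr8:111673547-111721333 in Rnor_6.0), is the iron carrier and had the highest CPM of the 9 genes. It stood at 2411, 2141 and 2213 CPM in sham libraries 1, 2 and 3 and at 2000, 2189 and 1984 CPM in BCP libraries 1, 2 and 3. BCP library 2 lay within the sham range and the other 2 below it. The mean was 2255 ± 140 CPM in sham and 2058 ± 114 CPM in BCP rats, a log2 fold change of -0.13 (SE 0.05, edgeR adjusted p = 0.0532) that did not pass the test. The 95% confidence interval of the difference ran from -15.05% to -1.99%.

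8 of 8 tested markers of oligodendrocytes, the cells that make much of the transferrin of the cord, were lower in BCP rats, with a median log2 fold change of -0.39. Myelin basic protein, Mbp, had a log2 fold change of -0.56 (SE 0.09). The summed level of the list was 38896 to 44154 CPM in sham and 27917 to 31169 CPM in BCP libraries. Choroid plexus markers were near 0, at 2.51 to 3.51 CPM in sham and 2.50 to 3.07 CPM in BCP libraries. Whether the oligodendrocyte markers and Tf differ in their change was not tested.

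The transferrin receptor, Tfrc (ENSRNOG00000001766, chr11:71397383-71419223), takes up iron-loaded transferrin. It had 168, 160 and 174 CPM in sham and 180, 183 and 196 CPM in BCP libraries. The groups did not overlap, though the lowest BCP library was only 1.04 times the highest sham library. The rise was 11.1% (95% confidence interval 3.39% to 19.5%), a log2 fold change of 0.15 (SE 0.05, edgeR adjusted p = 0.0270). Steap3 (ENSRNOG00000049471, chr13:36257112-36290531), the endosomal reductase that prepares the released iron for transport into the cytosol, had few reads, with 78, 90 and 91 counts in sham and 84, 76 and 64 in BCP libraries. Its groups overlapped, at 5.94 to 6.28 CPM in sham and 4.84 to 7.10 CPM in BCP rats. The fold was 0.941, with a wide interval from 0.720 to 1.23, and the edgeR adjusted p was 0.773.

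The ferritin heavy chain, Fth1 (ENSRNOG00000022619, chr1:226030938-226033228), carries the ferroxidase activity of the ferritin shell. It stood at 830, 799 and 801 CPM in sham and at 811, 807 and 858 CPM in BCP libraries. The groups overlapped, and the difference of 1.90% had a 95% confidence interval from -4.01% to 8.18% (edgeR adjusted p = 0.680). The light chain, Ftl1 (ENSRNOG00000020843, chr1:101448346-101449829), which helps the mineral core to form, was called higher. It had 30.2, 28.5 and 29.5 CPM in sham and 34.0, 34.8 and 37.4 CPM in BCP libraries, with no overlap. The rise was 20.4% (95% confidence interval 7.06% to 35.5%), a log2 fold change of 0.27 (SE 0.08, edgeR adjusted p = 0.0173).

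The row named Ftl1 holds only a small share of the reads given to ferritin light chains. The table has 9 rows described as ferritin light chain, all with counts, and Ftl1 took 12.4% to 13.6% of their counts in a library. Such near-identical copies share reads, and how the authors' counting divided them is not stated, so the level of a single row is uncertain. LOC100360087 held 56.8% of the family's counts and rose from 126 ± 3.74 to 157 ± 11.96 CPM (log2 fold change 0.32, edgeR adjusted p = 0.000184). LOC100362384 held 23.7% and rose from 51.0 ± 2.21 to 67.5 ± 0.878 CPM (log2 fold change 0.40, edgeR adjusted p = 6.48e-05). RGD1560687, with 2.69%, rose as well, from 4.87 ± 1.64 to 8.73 ± 0.705 CPM, and with Ftl1 these made 4 of the 7 rows tested.

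Summed over the 9 rows, the light chain had 3010, 3074 and 3212 counts in sham and 3116, 3922 and 3894 counts in BCP libraries. In CPM the sum rose from 220 ± 7.98 to 279 ± 15.7, by 26.8% (log2 fold change 0.34, SE 0.05, edgeR adjusted p = 2.07e-05). The sum was added after the values of the rows had been seen.

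**Figure D2:**
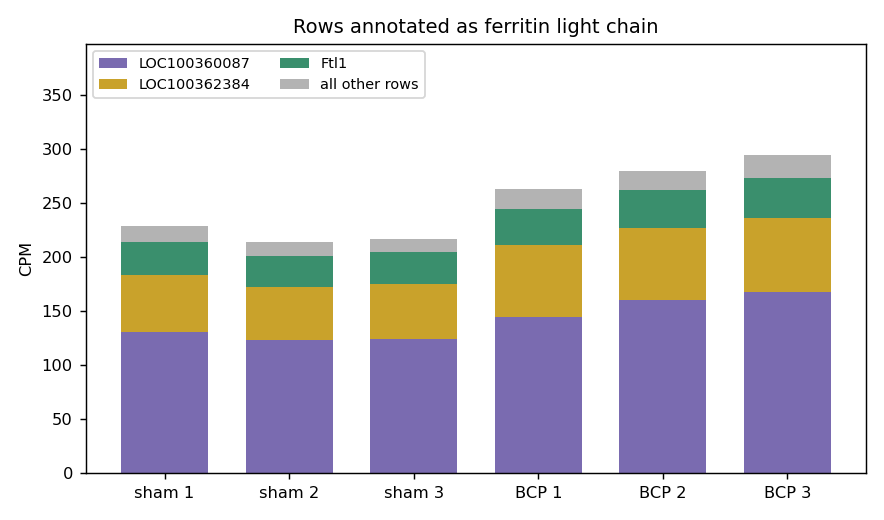
Stacked bars of the CPM (from 0) of the rows described as ferritin light chain in each library, with LOC100360087 in purple, LOC100362384 in yellow, Ftl1 in green and all other rows in grey. Of the summed 220 ± 7.98 CPM in sham and 279 ± 15.7 CPM in BCP libraries, LOC100360087 made the largest portion and Ftl1 a small one.

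The balance of the chains was set out per length in FPKM, fragments scaled to transcript length and library depth, as the authors deposited it. The level of Ftl1 was 5.47%, 5.36% and 5.54% of that of Fth1 in sham and 6.29%, 6.48% and 6.55% in BCP libraries. The groups did not overlap, with a log2 difference of 0.24 and an exact two-sided permutation p of 0.1, the smallest that 3 against 3 libraries allow. With all light chain rows summed, the ratio of counts to those of Fth1 was 26.8% to 27.6% in sham and 32.4% to 34.7% in BCP libraries, with the same exact p of 0.1. Both ratios compare RNAs and not the chains of the protein.

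Ceruloplasmin, Cp (ENSRNOG00000011913, chr2:104744461-104799853), the copper-containing ferroxidase of iron export, had the largest change of the 9 genes. It had 47.3, 40.0 and 42.4 CPM in sham and 147, 164 and 170 CPM in BCP libraries. Even the lowest BCP library was 3.11 times the highest sham library. Cp rose 3.72-fold (95% confidence interval 3.36 to 4.12), from 43.2 ± 3.74 to 160.7 ± 11.97 CPM, a log2 fold change of 1.90 (SE 0.07, edgeR adjusted p = 9.55e-13).

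Slc40a1, which ceruloplasmin partners in export, could not be set beside it. A gene annotated as similar to Slc40a1, LOC100911874, has a pair of rows on chromosome 9. The row at chr9:52894365-52912293 had 21, 44 and 48 counts in sham and 37, 20 and 28 counts in BCP libraries, with overlapping groups, and the row at chr9:52820683-52830457 is listed at 0 throughout.

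Heme oxygenase 1, Hmox1 (ENSRNOG00000014117, chr19:14508616-14515456), the inducible enzyme that opens heme and sets its iron free, was the other gene past both thresholds. It stood at 7.85, 8.93 and 7.16 CPM in sham and at 13.9, 18.9 and 23.2 CPM in BCP libraries. The BCP libraries were all above the sham libraries but spread widely, with a coefficient of variation of 24.9% beside 11.2% in sham. Hmox1 rose 2.35-fold (95% confidence interval 1.83 to 3.01), a log2 fold change of 1.23 (SE 0.17, edgeR adjusted p = 4.12e-05).

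The iron regulatory proteins bind hairpins in RNAs and so set the translation of ferritin and the stability of the transferrin receptor RNA. Because translation is controlled, RNA levels do not give the protein level of ferritin, and no protein was measured here for any gene. Ireb2 (ENSRNOG00000013271, chr8:59420123-59501118), iron regulatory protein 2, which is broken down when iron is plentiful, had 54.5, 53.0 and 58.7 CPM in sham and 59.0, 64.9 and 67.1 CPM in BCP libraries. The groups came within 1.01-fold of touching. Its rise of 15.01% (95% confidence interval 4.02% to 27.2%) passed the test narrowly (log2 fold change 0.20, SE 0.07, edgeR adjusted p = 0.0349). Aco1 (ENSRNOG00000005849, chr5:56425024-56481218), the cytosolic aconitase that turns into iron regulatory protein 1 when it loses its iron-sulfur cluster, had 64.3, 74.7 and 78.0 CPM in sham and 61.9, 68.8 and 71.0 CPM in BCP libraries. The groups overlapped, with a fold of 0.929 (95% confidence interval 0.834 to 1.04, edgeR adjusted p = 0.329).

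The calls of the small changes depended on which libraries were kept, whereas Cp and Hmox1 were called in all 11 refits. With 1 library left out, the log2 fold change stayed at 0.11 to 0.18 for Tfrc. It stayed at 0.23 to 0.30 for Ftl1 and at 0.16 to 0.26 for Ireb2. Tfrc was no longer called without sham library 1 (edgeR adjusted p = 0.0553), sham library 2 (0.121) or BCP library 3 (0.157), and Ftl1 was not called without sham library 2 (0.0625) or BCP library 3 (0.0876). Ireb2 was not called without sham library 1 (edgeR adjusted p = 0.0932), sham library 2 (0.134), BCP library 2 (0.110) or BCP library 3 (0.160). Tf was called lower without sham library 2 (edgeR adjusted p = 0.0295) or BCP library 2 (0.0147). With DESeq2 neither Ftl1 (adjusted p = 0.0507) nor Ireb2 (0.0797) was called.

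**Figure D3:**
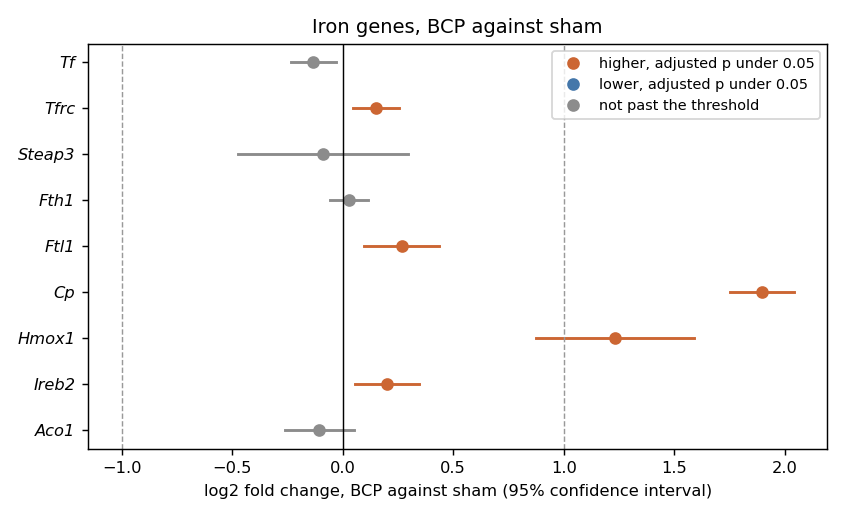
Log2 fold change of BCP against sham rats (horizontal axis) for the 9 genes, with 95% confidence intervals from edgeR's quasi-likelihood fit. Cp at 1.90 and Hmox1 at 1.23 lay past a log2 fold change of 1, and the other 7 genes lay between -0.13 and 0.27.

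Per length, the sham cord held these RNAs over a wide range. Fth1 was the highest at 962 ± 16.9 FPKM, followed by Tf at 651 ± 37.9 FPKM. A 12.4-fold gap in FPKM separated Tf from Ftl1 at 52.5 FPKM, which counts the Ftl1 row alone. Tfrc followed at 34.5, Aco1 at 20.6, Ireb2 at 14.7, Cp at 10.8, Hmox1 at 5.02 and Steap3 at 2.01 FPKM. No neighbours in this order overlapped over the 3 sham libraries. In BCP rats Cp, at 41.4 ± 3.39 FPKM, moved from rank 7 to rank 4 and overlapped Tfrc at 39.5 FPKM, as Aco1 at 19.7 did Ireb2 at 17.3 FPKM. The other neighbours did not overlap in BCP rats.

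Promoter sequences are shown for Cp, which changed most, and Tf, which had the highest CPM of these genes. In the table of RefSeq promoters used here, 7 of the 10 names were matched (Cp, Tf, Tfrc, Steap3, Slc40a1, Ireb2 and Aco1), in the build GRCr8, which is not the build of the expression files. The 250 bases before the start of Cp lie at chr2:104368420-104368669 on the plus strand, and those of Tf at chr8:112695377-112695626 on the minus strand. Both are written 5′ to 3′ on the strand of the gene, with capitals at matches of TTNNGCAA, a short form of the C/EBP motif, in either orientation.
Cp: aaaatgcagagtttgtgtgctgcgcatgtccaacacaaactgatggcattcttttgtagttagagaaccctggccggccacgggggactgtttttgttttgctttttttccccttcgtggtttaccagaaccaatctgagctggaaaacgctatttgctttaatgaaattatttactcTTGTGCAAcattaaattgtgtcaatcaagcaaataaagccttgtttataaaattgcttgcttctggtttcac
Tf: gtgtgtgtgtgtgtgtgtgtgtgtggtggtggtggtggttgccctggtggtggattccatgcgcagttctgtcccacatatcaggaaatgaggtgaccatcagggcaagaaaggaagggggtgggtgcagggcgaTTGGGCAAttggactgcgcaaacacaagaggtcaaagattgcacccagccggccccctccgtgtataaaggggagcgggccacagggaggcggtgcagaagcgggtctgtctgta
The match of Cp lies at -72 to -65 and that of Tf at -115 to -108, counted back from the start of the gene. Searched on both strands, this motif was in 9.22% of 33469 promoter windows of the same length and in 2 of the 7 iron gene windows. TTCNNNGAA for STAT (7.67% of windows) and TGACNNNGC for the antioxidant response element (10.1%) had no match in these 7 windows. At such shares, no match in 7 windows is not a result about the iron genes. Hmox1, Fth1 and Ftl1 had no window and were not searched. A match here is a description of letters and not of a bound site.

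The deposited lncRNA table adds transcripts that lie on the iron genes. Within 10 kb of 5 of them lay 9 lncRNAs, of which 7 overlapped the gene, and 3 had enough counts to be tested. NONRATT015181.2 at chr2:104783387-104803664 overlaps Cp over 16467 bases and had 84, 91 and 111 counts in sham and 180, 227 and 287 counts in BCP libraries. It rose 2.68-fold, from 40.7 ± 3.59 to 109 ± 22.2 CPM of lncRNA counts (log2 fold change 1.42, SE 0.17, edgeR adjusted p = 0.00629), where 1.57% of all tested lncRNAs were higher and 0.395% lower. Whether the counting used strand is not stated, so reads of Cp and of this lncRNA cannot be told apart.

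The other 2 tested lncRNAs did not pass. NONRATT002642.2 at chr1:101449124-101450028, over Ftl1, had a log2 fold change of 0.19 (edgeR adjusted p = 0.314). NONRATT027708.2 at chr8:59499805-59503633, over Ireb2, had one of 0.24 (edgeR adjusted p = 0.335). Their unadjusted edgeR p-values were 0.0324 and 0.0366. They overlap Ftl1 and Ireb2 over 706 and 1314 bases, so their reads cannot be told apart from those of the genes either.

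A wider list of 44 genes of iron and heme handling was read beside these genes. 43 have a row and 33 were tested, of which 3 were higher, 3 lower and 27 did not pass, beside 15.8% higher and 12.1% lower among all tested genes. The median log2 fold change was 0.02. Steap4 was the only gene of the list past both thresholds.

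Among 8 tested uptake genes Steap4, a metalloreductase of the cell surface, was higher. It had 17, 20 and 14 counts in sham and 40, 24 and 30 counts in BCP libraries. The log2 fold change of 1.00 (SE 0.33, edgeR adjusted p = 0.0265) stood just over the threshold. The call of Steap4 was lost without sham library 1 (edgeR adjusted p = 0.0514), 2 (0.0508) or 3 (0.103), without BCP library 1 (0.151) or 3 (0.0539), and with DESeq2 (0.0977).

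Of 3 regulators Nfe2l2, the transcription factor NRF2 of the antioxidant response, was higher. It stood at 35.0, 27.7 and 32.4 CPM in sham and at 50.7, 51.9 and 54.2 CPM in BCP libraries, with no overlap. It rose 1.65-fold (log2 fold change 0.72, SE 0.08, edgeR adjusted p = 1.68e-06). 

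Of 5 tested genes of mitochondrial iron use, Slc25a28, mitoferrin 2, rose from 35.7 ± 2.60 to 44.6 ± 2.10 CPM (log2 fold change 0.32, edgeR adjusted p = 0.00437). Iscu, the scaffold on which iron-sulfur clusters are built, fell from 64.3 ± 1.92 to 54.4 ± 3.23 CPM (log2 fold change -0.24, edgeR adjusted p = 0.00954), but was not called without BCP library 2 (adjusted p = 0.0694). These members of 1 group moved in opposite directions.

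Of 10 tested heme genes 1 was called: Slc48a1, a heme transporter, fell from 220 ± 1.36 to 191 ± 0.424 CPM (log2 fold change -0.20, edgeR adjusted p = 0.00146). Bach1, a heme-binding repressor of Hmox1, had a log2 fold change of 0.26 (edgeR adjusted p = 0.0767) and did not pass. Hmox2, the constitutive heme oxygenase, had a log2 fold change of -0.03 (edgeR adjusted p = 0.674). Slc22a17, the receptor of the siderophore carrier lipocalin 2, fell from 371 ± 20.4 to 307 ± 8.05 CPM (log2 fold change -0.27, edgeR adjusted p = 0.000160).

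Lipocalin 2 itself, Lcn2, had 38, 47 and 11 counts in sham and 115, 98 and 68 counts in BCP libraries. The groups did not overlap, but sham library 3 was far below the other 2, and the log2 fold change of 1.66 (SE 0.49, edgeR adjusted p = 0.0532) did not pass. It was called higher with DESeq2 (adjusted p = 0.000110), without sham library 3 (edgeR adjusted p = 0.00174) and with library size only (0.0488). Neutrophils, which carry lipocalin 2, had markers summing to 0.152 to 0.608 CPM in sham and 1.59 to 4.14 CPM in BCP libraries, and their part in its level was not tested. Of these 4 markers only S100a8 had enough counts to be tested, and it was higher. S100a9 did not overlap between the groups, while Mpo, with 1 to 8 counts, and Elane, with 0 to 3, did. By edgeR and by DESeq2 0 of the 2 tested storage and chaperone genes were called, with 1 (Pcbp2) at an unadjusted edgeR p under 0.05, and 0 of the 3 tested export and hepcidin genes, with 0 at an unadjusted p under 0.05. Heph, hephaestin, a ferroxidase related to ceruloplasmin, had a log2 fold change of -0.24 (edgeR adjusted p = 0.146). Hamp, which encodes the iron hormone hepcidin, had 0 to 3 counts in a library. Bach1, Hmox2, Lcn2, Pcbp2, Heph and Hamp were chosen after their values had been seen.

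**Figure D4:**
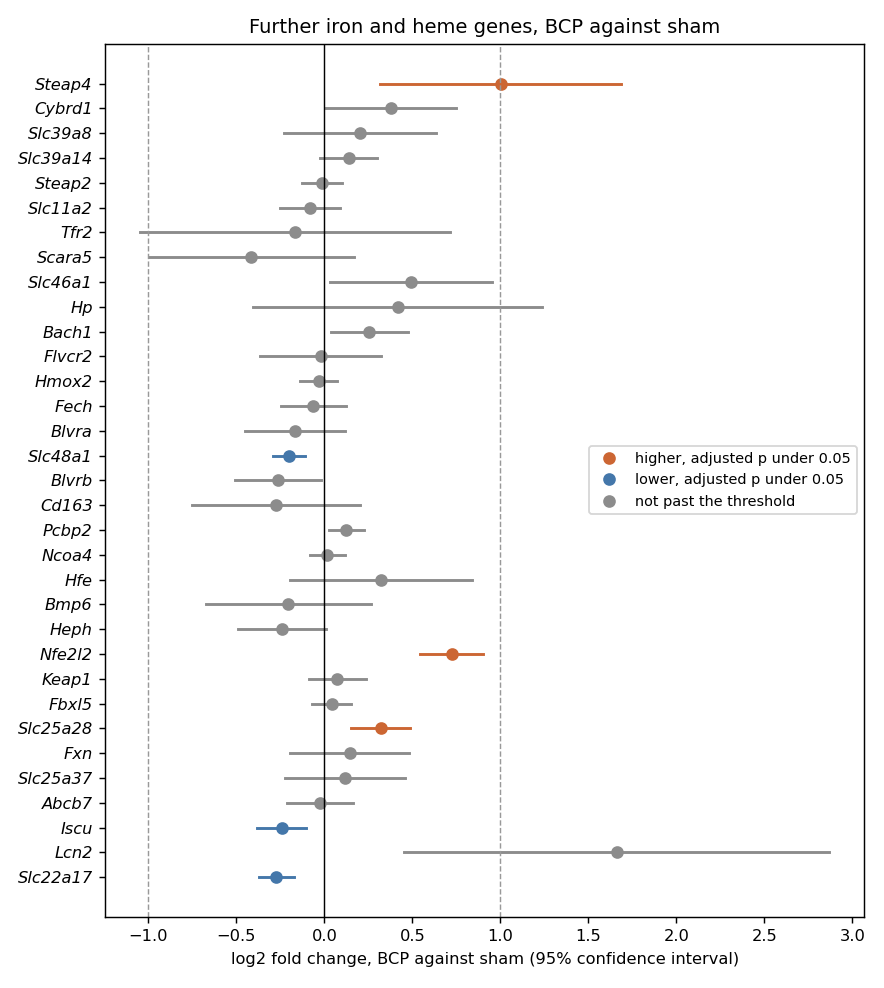
Log2 fold change of BCP against sham rats (horizontal axis) with 95% confidence intervals for the 33 tested genes of the wider iron and heme list, coloured by call. Nfe2l2 at 0.72 and Slc22a17 at -0.27 were called, and the wide interval of Lcn2 around 1.66 lay above 0 although its adjusted p did not pass.

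Genes most like Cp and Hmox1 over the 6 libraries were found by the Euclidean distance of log2 CPM centred on its mean, among 10281 genes. For Cp these were Pik3cg, a phosphoinositide kinase subunit of white blood cells (distance 0.150), Lrrk1 (0.202) and Gna15, a G protein subunit of blood cells (0.208). For Hmox1 they were S100a4 (0.190), Tgfbr2, a receptor of TGF-beta (0.287), and E2f2 (0.303). By this measure genes with a like fold change between the groups lie near each other. The log2 fold changes of Pik3cg, Lrrk1 and Gna15 were 1.91, 1.81 and 1.82, beside 1.90 for Cp. Whether such genes share a cell type was not tested.

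Markers of several cell types also differed between the groups. Of 9 tested microglia markers 6 were higher, and their summed level was 226 to 288 CPM in sham and 619 to 728 CPM in BCP libraries. Cd68, a lysosomal protein of phagocytes, had a log2 fold change of 3.66 and Aif1, the calcium-binding protein IBA1, one of 2.40. All 6 tested T cell markers were higher, from 4.88 to 5.79 CPM in sum in sham to 41.3 to 44.7 CPM in BCP libraries, while the list of 5 markers of perivascular and monocyte-derived macrophages, 4 of them tested, summed to 13.7 to 18.8 CPM in sham and 13.4 to 17.9 CPM in BCP libraries, with 0 called by edgeR or DESeq2 and 0 at an unadjusted edgeR p under 0.05.

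Gfap, the filament protein of astrocytes, rose from 2336 ± 158 to 4071 ± 355 CPM (log2 fold change 0.80, edgeR adjusted p = 5.27e-05). Of 6 tested astrocyte markers it was the only one higher, and 2 were lower. The lower ones were Slc1a2 (log2 fold change -0.37, edgeR adjusted p = 1.65e-06) and Aldh1l1 (-0.26, edgeR adjusted p = 0.0123). Aqp4 had 28568 counts in BCP library 1 and 4637 to 5427 in the others, and Slc1a3 had 1286 counts in sham library 1 and 3593 to 4282 in the others.

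Red blood cell markers moved too. Of 9 names 6 have a row, all 6 were tested and all were higher, and the summed level of the list was 251 to 268 CPM in sham and 483 to 698 CPM in BCP libraries. The hemoglobin chains alone summed to 255, 263 and 248 CPM in sham and 471, 544 and 684 CPM in BCP libraries. Alas2, the heme synthesis enzyme of red cell precursors, rose with a log2 fold change of 1.48 (edgeR adjusted p = 0.000150). Among the BCP libraries, Hmox1, Cp, the hemoglobin sum and the microglia sum were all lowest in library 1 and highest in library 3. The T cell sum and Gfap were also lowest in library 1 but highest in library 2. Cd4 made the largest part of the T cell sum. It ran the other way, at 25.6, 20.5 and 19.7 CPM in BCP libraries 1, 2 and 3. Whether these orders are linked was not tested.

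Markers of meninges were 27.9 to 47.7 CPM in sham and 42.1 to 97.3 CPM in BCP libraries, with Col1a2 listed at 0. Only BCP library 1 lay above the sham range, where Col1a1 had 995 counts beside 250 to 485 in sham. In BCP libraries 2 and 3 Col1a1 had 462 and 350 counts. Of the 3 tested markers 0 were called. Those of hepatocytes and serum, where ceruloplasmin and transferrin are also made, were near 0, at 3.28 to 5.23 CPM in sham and 1.82 to 3.04 CPM in BCP libraries. Of the 2 tested, 1 was called: Alb was lower (log2 fold change -1.52, edgeR adjusted p = 0.00960). It had 17, 45 and 23 counts in sham and 12, 9 and 6 counts in BCP libraries. Neuron markers were 2519 to 2672 CPM in sham and 2385 to 2573 CPM in BCP libraries, a sum made mostly of Snap25. Of 6 tested neuron markers 2 were lower and 0 higher. These were Rbfox3 (log2 fold change -0.34, edgeR adjusted p = 0.00134) and Slc32a1 (-0.32, edgeR adjusted p = 0.000434). The part of the microglia, T cell, astrocyte, red blood cell and oligodendrocyte markers in the changes of the iron genes was not tested.

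**Figure D5:**
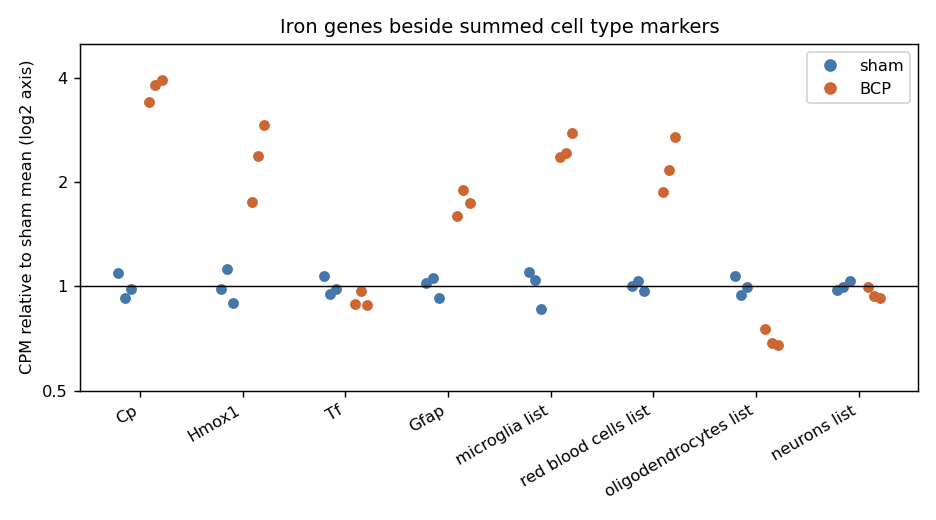
CPM of Cp, Hmox1, Tf and Gfap and summed CPM of 4 marker lists in each library, divided by the sham mean (log2 axis, sham in blue, BCP in orange). Gfap does not stand for the astrocyte list, in which 1 marker of 6 was called higher and 2 lower. Hmox1, the microglia list and the red blood cell list all lay above the sham libraries in BCP rats, and the oligodendrocyte list lay below them.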

How the data were processed

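RNA of 6 libraries, 3 sham and 3 BCP, was sequenced. The authors used Seqtk to filter the reads, HISAT2 2.0.4 for alignment to Rnor_6.0 and StringTie 1.3.0 for expression, as the paper and the submitters' processing notes state. The deposited tables hold unnormalized counts and FPKM values, made by the authors, of genes and lncRNA transcripts in each library. Which program counted, whether strand was used and how multiply mapped reads were handled is not given in the sources used here. The authors' columns of fold changes and p-values were not used.

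Counts were fitted with edgeR 4.0.16 in R 4.3.3 (TMM, filter by expression, robust quasi-likelihood test on condition, Benjamini-Hochberg adjustment) over all 14908 genes and separately over 12157 lncRNAs that passed the filter. The study's thresholds were used, an adjusted p under 0.05 with a log2 fold change beyond 1 in either direction, and also the adjusted p alone. Standard errors are the log2 fold change over the square root of F. FPKM served only to compare levels between genes. The gene counts varied between libraries of a group with a biological coefficient of variation of 7.72%, and lncRNA counts with 33.4%. No 2 libraries of a group agreed within sampling noise (chi-square per degree of freedom 3.48 to 6.04). Intervals cover the spread between these libraries only.

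The text names all members, called genes of the wider list and, for members past both thresholds, the 3 genes at the smallest distance with at least 10 CPM. The members and lists were chosen with earlier results of these data known. Alternatives were DESeq2 1.42.0, its size factors, library size only, no filter, a replicate block and each library left out. The code was tested on simulated data. Figures were drawn with matplotlib 3.10.9.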

Additional observations from a re-analysis of the deposited data

How the results depend on the processing

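Cp (log2 fold change 1.84 to 1.96) and Hmox1 (1.05 to 1.41) were called and past both thresholds, and 1 lncRNA near the iron genes was called, under all 11 alternatives. 5 of the 9 genes were higher; DESeq2 gave 3, and leaving out 1 library gave 2 to 5, with 3 without sham library 1 and 2 without sham library 2 or BCP library 3. No gene was lower, but 1, Tf, was without the filter on low counts (log2 fold change -0.13, adjusted p = 0.0309), and leaving out 1 library gave 0 to 1. Over the alternatives the adjusted p of Tf ran from 0.0147 to 0.260, of Tfrc from 0.00640 to 0.157, of Ireb2 from 0.0111 to 0.160 and of Ftl1, its summed rows included, from 2.07e-05 to 0.0876. Of the wider list 3 genes were higher, but 6 were with library size only, which moves the median log2 fold change of all genes from -0.01 to 0.03 and their split from 2352 higher and 1805 lower to 2673 and 1262. Leaving out 1 library gave log2 fold changes of -0.0015 to 0.047 for Fth1 and -0.25 to 0.024 for Steap3 with neither called, and the sign changed only without BCP library 3. The cause of these changes was not tested.

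The labels give both groups replicate numbers 1 to 3 but no shared origin. Deviations of same-numbered libraries correlated at -0.12, 0.06 and -0.04, and not every library correlated best with its own number. With the replicate number as a block 5 of the 9 genes were higher and none was lower, and of all genes 2217 were higher and 1597 lower, but 49 lncRNAs were higher and 15 lower in place of 191 and 48, and Lcn2 was called (adjusted p = 0.000223). The log2 difference of the Ftl1 to Fth1 ratio was 0.24 with the block, with an exact permutation p of 0.25, the smallest that 3 blocks allow. Low counts limit genes such as Steap3, whose interval of 0.720 to 1.23 in fold holds both no difference and one of the size seen for Tfrc.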

Other observations

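In the annotation of the deposited table, 68 genes carry the term iron ion homeostasis, 8 of them among the iron genes above, and 51 were tested. By edgeR's adjusted p 16 were higher and 4 lower, beside 15.8% and 12.1% of all tested genes, with a median log2 fold change of 0.10. The higher genes include the ferritin light chain rows Ftl1, LOC100360087, LOC100362384 and RGD1560687, which share reads and are not separate results. Cp, Hmox1, Tfrc and Ireb2, also among them, were already counted above. The 6 that were higher past both thresholds, as 6.35% of all tested genes were, were Cp, Hmox1, Steap4, Alas2, Slc11a1 and B2m. Slc11a1, the NRAMP1 metal transporter in the phagosomes of macrophages and microglia, rose from 4.25 ± 0.972 to 35.3 ± 4.36 CPM (log2 fold change 3.06, SE 0.14, edgeR adjusted p = 1.65e-11). B2m, the light subunit of MHC class I and of the hemochromatosis protein HFE, rose from 270 ± 42.3 to 1114 ± 122 CPM (log2 fold change 2.05, SE 0.16, edgeR adjusted p = 0.00133). Hif1a, a subunit of the hypoxia-inducible factor, rose from 152 ± 8.74 to 228 ± 2.95 CPM (log2 fold change 0.58, edgeR adjusted p = 1.83e-08). The term and these genes were chosen after their values had been seen.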
